A study of Mus musculus with 12 samples.

Results

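A list of 8 long non-coding RNAs known from neural tissue was sought in single nuclei of the embryonic mouse cortex, which named Snhg11, Miat, Rmst, Sox2ot, Pantr1, Mir124a-1hg, Mir99ahg and Gm29260. The members were taken by symbol, from a list drawn up with earlier results of these data known. Of the 8 members, 6 had a row among the 23513 genes of the tables used here, and Sox2ot and Mir99ahg were not analysed here. The 6 measured members were described in all 25 clusters of nuclei and in 11 embryos, by their unique molecular identifier (UMI) counts, in which each UMI marks 1 captured RNA molecule.

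The nuclei came from the cortex of C57BL/6J embryos at embryonic day 14. Pregnant dams had received saline or ethanol (EtOH) once a day by intraperitoneal injection, from the start of neurulation until the day before collection, and no other agent, allele or transgene was named for either group. There were 5 saline embryos (S1-1, S1-2, S2-1, S2-2 and S2-4) and 6 EtOH embryos (E1-1, E1-2 and E2-1 to E2-4), and a further saline embryo named in the labels was not used here. Each treatment rested on 2 dams. Batch 1 of nuclei isolation and library preparation held dams S1 and E1 and batch 2 the other pair, so p-values over embryos measure the spread between littermates of few dams.

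Long non-coding RNAs are transcripts without a known protein product, and many are kept in the nucleus, where nuclear libraries can capture them. Some act on chromatin or on splicing factors, and others are long precursors from which small RNAs are cut. In the developing cortex, radial glial cells (RGCs) divide and give rise to intermediate progenitor cells (IPCs), which produce projection neurons (PNs), while interneurons (Ints) migrate in from the ventral forebrain. The study named 5 clusters RGC, 2 IPC, 8 PN and 7 Int. The other 3 clusters were striatal cells (Cluster 11), Cajal-Retzius cells (Cluster 14) and unknown neurons (Cluster 19). The markers of each type were highest in that type, with saline means of 865 CPM for 5 radial glial markers in RGCs, 370 CPM for Eomes in IPCs, 429 CPM for 3 markers of PNs and 1419 CPM for 4 of Ints (CPM, counts scaled to the total of the summed nuclei).

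The members differ in what is known of them. Rmst binds the transcription factor Sox2 and is needed for neuronal differentiation, and its gene carries microRNAs. Miat is a nuclear RNA whose repeated TACTAAC motif resembles the branch point of introns and is bound by the splicing factor Sf1. Mir124a-1hg is a host of miR-124, the microRNA of neurons, and Snhg11 is a host of small nucleolar RNAs. Pantr1 lies next to Pou3f3, a POU-domain transcription factor of upper-layer neurons and their progenitors. No function is given here for Gm29260.

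The members' places in the genome (GRCm38, GENCODE M21) show which genes lie inside them or beside them. Snhg11 lies on the plus strand at chr2:158375638-158386145, where the annotation calls it protein-coding, and 2 snoRNA genes lie inside it. Mir124a-1hg lies on the plus strand at chr14:64587331-64593961 and holds Mir124a-1 and Mir3078. Rmst lies on the minus strand at chr10:92071037-92165170, and Miat on the minus strand at chr5:112213228-112229395. Gm29260 (plus strand, chr1:41781808-41939560) and Pantr1 (minus strand, chr1:42590782-42694842) lie in one region of chromosome 1 with Pou3f3 (plus strand, chr1:42695768-42703176).

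Rmst is the measured member for which mature microRNAs were matched by position inside the gene, so their sequences are shown as the products that its locus can give (RefSeq, GRCm38.p6, minus strand). The capitals mark the seed, bases 2 to 8 counted from the 5′ end, by which a microRNA recognises its targets. No pair of the 4 shares a seed. They lie, in the order shown, at chr10:92072104-92072124, chr10:92072141-92072163, chr10:92137152-92137172 and chr10:92137190-92137210. The nuclear counts are of the host gene, and the mature microRNAs were not measured.
mmu-miR-135a-2-3p: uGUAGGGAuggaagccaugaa
mmu-miR-135a-5p: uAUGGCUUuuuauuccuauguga
mmu-miR-1251-3p: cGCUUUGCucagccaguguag
mmu-miR-1251-5p: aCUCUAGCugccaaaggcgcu

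The longest annotated Miat transcript (9163 bases) held 6 copies of the letters TACTAAC, searched on the transcript strand. They are shown, in capitals, because they are the feature by which this RNA is known. The copies fell into 2 stretches of 3, at bases 4926 to 5087 and 5574 to 5644 counted from the transcript's 5′ end. Of 141767 annotated transcripts, 3.60% held at least 1 copy. At least 6 copies were held by 5 transcripts of 4 genes, Miat itself included. No transcript of the other 5 measured members held the motif.
Miat, first stretch: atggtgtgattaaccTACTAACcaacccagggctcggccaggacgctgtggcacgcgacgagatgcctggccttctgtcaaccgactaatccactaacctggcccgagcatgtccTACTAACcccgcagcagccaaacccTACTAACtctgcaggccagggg
Miat, second stretch: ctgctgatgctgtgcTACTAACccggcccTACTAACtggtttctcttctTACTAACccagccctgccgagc

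The libraries set limits on every comparison of EtOH with saline. Total UMIs per embryo ranged from 44017566 to 83061737 in saline and from 14078316 to 38034349 in EtOH, over 30349 saline and 20201 EtOH nuclei. The median UMIs per nucleus ranged from 6325 to 9051 in saline and from 4071.5 to 6911 in EtOH. The library labelled saline S2-4 went against its label. In all 4 cell types it lay nearer to the mean of the EtOH embryos than to the mean of the other saline embryos, and it was the saline library with the lowest median depth, inside the EtOH range. In PNs the SD of its log2 CPM differences over genes was 0.107 from the EtOH mean and 0.313 from the saline mean. The other 10 libraries were each nearer to their own group in all 4 types. Calls of the members are therefore also given without S2-4. This library was singled out by its expression, so leaving it out widens the difference between the groups by selection. Over all genes, calls went from 0.792% to 8.78% of fits in clusters. Calls made without S2-4 are a description and no independent support. Between 1 and 18 cell barcodes were shared by a pair of libraries, at most 0.384% of the smaller one.

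**Figure D1:**
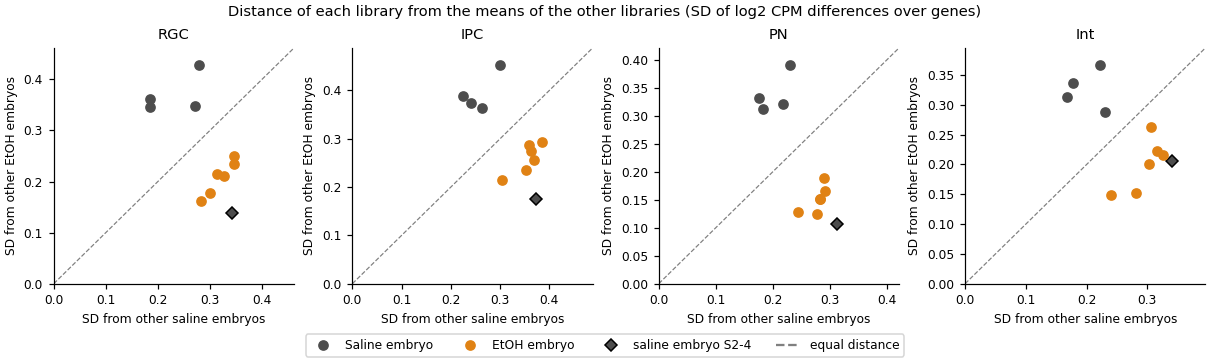
Distance of each of the 11 libraries from the other libraries, in 4 panels for RGC, IPC, PN and Int. Each point is an embryo, the x axis is the SD over genes of its log2 CPM difference from the mean of the other saline embryos, the y axis is the same against the other EtOH embryos, and the dashed line marks equal distance. The saline embryo S2-4 (diamond) lies with the EtOH embryos in every panel, at 0.313 from saline and 0.107 from EtOH in PN.

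The members were highest in different clusters of the 25, except that Pantr1 and Gm29260 were both highest in Cluster 12. For all 6 the highest cluster was the same in saline and in EtOH embryos. The levels are CPM of counts summed per embryo and cluster, as means ± SD over embryos with at least 10 nuclei in the cluster. They are a description with no test, since the clusters had been made from the same nuclei. Among 11621 genes that reached 10 CPM in a cluster, the ratio of the highest to the lowest cluster mean, after adding 1 CPM to each, was 3.28 at the median. The ratio was above that of 97.3% of these genes for Rmst and of 67.2% for Miat. No ratio is given for the other 4, since the share of nuclei with a UMI in their lowest cluster lay near or within that of a gene that should be absent.

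**Figure D2:**
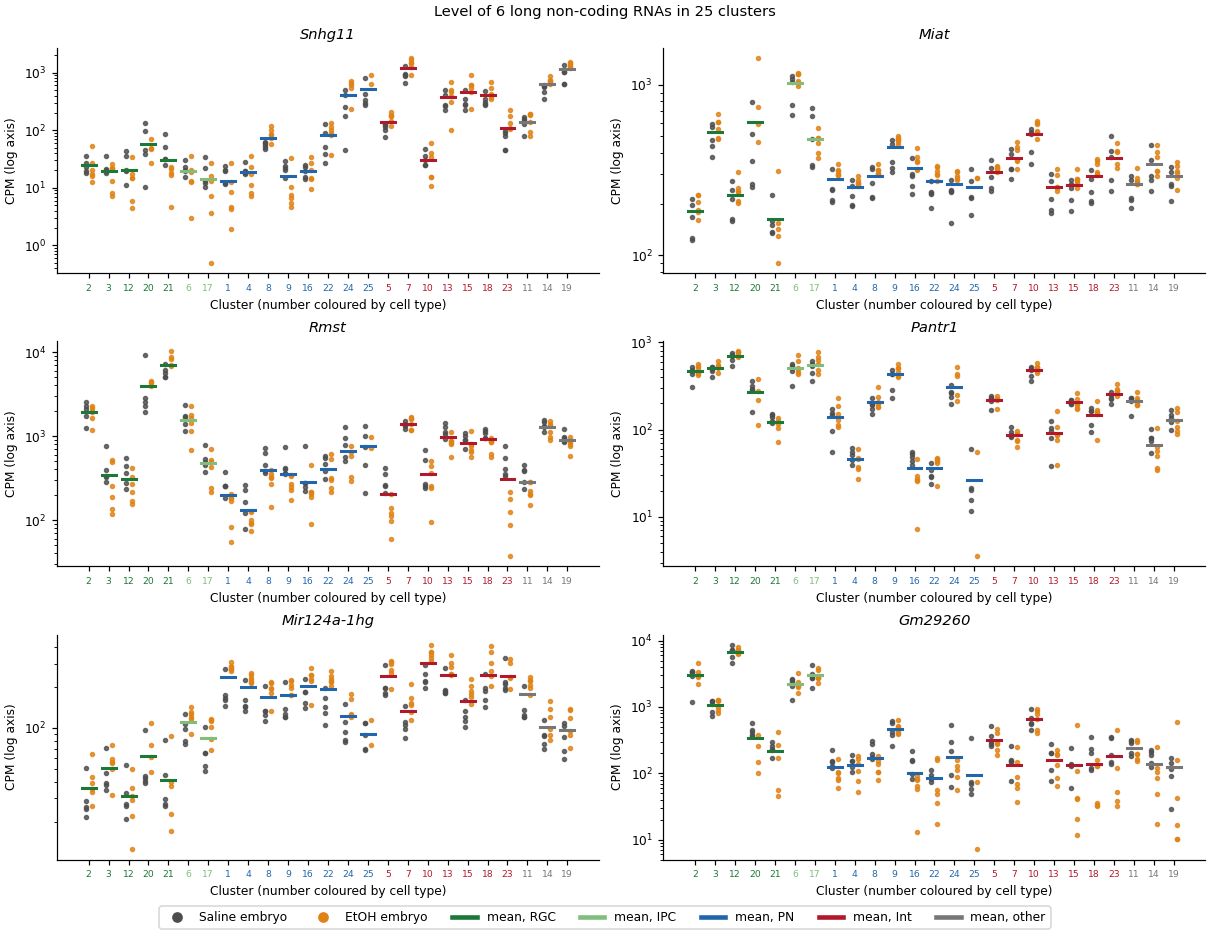
CPM of the 6 measured members (log axis) in the 25 clusters, grouped and coloured by cell type, with 1 point per embryo (saline grey, EtOH orange) and a bar at the mean. A single value of 0, Snhg11 in Cluster 17 of embryo E2-3, is drawn at 0.5 CPM. Snhg11 is highest in Clusters 7 and 19, and Rmst and Gm29260 peak in RGC clusters. Miat peaks in Cluster 6, Pantr1 in Cluster 12 and Mir124a-1hg in Cluster 10 (late interneuron precursors).

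Snhg11, the snoRNA host, was highest in Cluster 7 (Int 1) and Cluster 19 (unknown neurons), and lowest in Cluster 1 (callosal PNs). Cluster 7 held 1198 ± 364 CPM and Cluster 19 held 1172 ± 311 CPM (SD, n = 11 each), and these neighbours did not differ beyond their spread. Cajal-Retzius cells (Cluster 14) followed with 626 ± 142 CPM, then Cluster 25 (PN 3) with 525 ± 257 CPM (SD, n = 7). The lowest level, in Cluster 1, was 13.3 ± 8.33 CPM (SD, n = 11). In Cluster 7 the saline embryos held 916, 946, 660, 863 and 1317 CPM, and the EtOH embryos 890 to 1778 CPM. Cluster 7 was the highest cluster in 6 of 11 embryos, and with nuclei thinned to 2000 UMIs Cluster 19 (1103 CPM) lay above it (1065 CPM). Levels among PN clusters were split, with Clusters 25 and 24 far above Clusters 1 and 9 of the same type. At a depth of 2000 UMIs per nucleus, 65.0% of Cluster 7 nuclei, 77.8% of Cluster 19 nuclei and 2.32% of Cluster 1 nuclei held a Snhg11 UMI.

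Rmst, the partner of Sox2, was highest in 3 RGC clusters. It was lowest in Cluster 4 (rostral subcortical PNs), followed by Cluster 1 (callosal PNs) and Cluster 5 (migrating interneurons). Its mean was 7010 ± 1676 CPM in cortical hem RGCs (Cluster 21, n = 10), 3991 ± 2200 CPM in Cluster 20 (RGC 2, n = 9) and 1913 ± 425 CPM in Cluster 2 (RGC 1, n = 11). The cortical hem is the signalling edge of the cortex that releases Wnt and BMP ligands. The RGC clusters were not alike, since Cluster 3 (interneuron precursors) and Cluster 12 (non-mitotic RGCs) lay with the neurons in the order. The lowest level was 133 ± 61.2 CPM in Cluster 4, so that the highest cluster was 52.8-fold higher. In Cluster 21 the saline embryos held 7237, 5072, 5082, 5553 and 6038 CPM. In Cluster 20 one saline embryo, S2-2, held 9241 CPM, and the other 4 saline embryos held from 1919 to 2841 CPM.

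Gm29260 was also high in progenitors, and its highest cluster was another than that of Rmst. It reached 6826 ± 1120 CPM in non-mitotic RGCs (Cluster 12), against 3029 ± 852 CPM in Cluster 2 and 2995 ± 682 CPM in mitotic IPCs (Cluster 17; SD, n = 11 each). Cluster 12 lay above the next cluster by more than their spread, and it was the highest cluster in 11 of 11 embryos. The 5 saline values in Cluster 12 were 7201, 8683, 5668, 4614 and 7169 CPM. Non-mitotic IPCs (Cluster 6) held 2222 ± 533 CPM, and interneuron precursors (Cluster 3) held 1059 ± 206 CPM. Its lowest level was 84.9 ± 47.7 CPM in Cluster 22 (callosal PNs). At 2000 UMIs, 97.9% of Cluster 12 nuclei and 8.41% of Cluster 22 nuclei held a Gm29260 UMI.

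Pantr1 was highest in Cluster 12 as well, at 704 ± 76.3 CPM, and again in 11 of 11 embryos. Unlike Gm29260 it stayed near this level in mitotic IPCs (552 ± 119 CPM), Cluster 6 (512 ± 105 CPM), interneuron precursors (508 ± 55.8 CPM) and late interneuron precursors (Cluster 10, 485 ± 61.4 CPM). Each of these neighbours in the order lay within the spread of the next. Its lowest levels were in neurons, with 26.8 ± 21.8 CPM in Cluster 25, followed by Clusters 16 and 22 at like levels (36.7 ± 9.20 CPM in Cluster 22). The saline embryos held 690, 754, 628, 532 and 712 CPM in Cluster 12.

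Miat was highest in non-mitotic IPCs (Cluster 6), at 1022 ± 166 CPM, and Cluster 6 was the highest in 10 of 11 embryos. The saline embryos held 663, 761, 1041, 1134 and 1087 CPM there, and the EtOH embryos 991 to 1169 CPM. Cluster 20 followed with 602 ± 367 CPM (n = 9). Its range was 6.24-fold, down to 164 ± 61.8 CPM in cortical hem RGCs, and at 2000 UMIs the share of nuclei with a UMI was 16.9% there, against 78.8% in Cluster 6.

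Mir124a-1hg, the miR-124 host, was higher in neurons than in RGCs. It was highest in late interneuron precursors (Cluster 10), at 302 ± 70.8 CPM. Then came Clusters 18, 13, 23 and 5 of the interneurons, from 244 to 248 CPM, and callosal PNs (Cluster 1) at 238 ± 61.1 CPM, none of which differed from its neighbour beyond the spread. The lowest levels were in RGCs, with 35.7 ± 12.7 CPM in Cluster 2 and 31.1 ± 11.9 CPM in Cluster 12.

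The genes whose cluster means followed each member most closely were found among 11621 genes, by Pearson's r of log2(CPM + 1) over 25 clusters. The clusters share libraries, depth and the genes they were made from, so the correlations are descriptions. Of the closest followers, 2 overlap their member on the opposite strand. Gm26953 followed Miat (r = 0.98) and Gm26700 followed Rmst (r = 0.99). The counting was run at default settings, and its handling of strand is not described in the sources used here. How far reads of such a gene and its partner were kept apart was not tested. After Gm26953 came Coro1c, an actin-binding protein (r = 0.83), and Myt1, a zinc-finger factor of neuronal differentiation (r = 0.82), for Miat. For Rmst the next genes were Mycbpap (r = 0.84) and Mapkbp1 (r = 0.83).

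Snhg11 was followed by Slc12a5, the chloride exporter of maturing neurons (r = 0.94), then by Tmem130 (r = 0.94) and Xkr6 (r = 0.93). Mir124a-1hg was followed by Plppr3 (r = 0.94), by Scrt1, a neuronal transcriptional repressor (r = 0.93), and by Spast, which severs microtubules (r = 0.93). Gm29260 was followed by Lpar1, a receptor for lysophosphatidic acid (r = 0.95), by the small GTPase Gem (r = 0.94) and by Fam210b (r = 0.93).

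Pantr1 was followed by its neighbour Pou3f3 (r = 0.98 over 25 clusters, and 0.98 over the 20 clusters that are not RGC). The annotated starts of the genes lie 0.926 kb apart and point away from each other. Pou3f3 had 147 ± 19.4 CPM in Cluster 12, where Pantr1 was highest too, and 7.55 ± 6.52 CPM in Cluster 25, where Pantr1 was lowest. Next were Gm28175 (r = 0.93), another non-coding gene of the region, 286 kb from Pantr1, and Mynn (r = 0.93). Gm29260, 651 kb away, followed Pantr1 with r = 0.80 and Pou3f3 with r = 0.83, and Pou3f2, the paralogue of Pou3f3 on another chromosome, followed Pantr1 with r = 0.92. The Pou3f3 promoter is shown because it overlaps the interval between the starts of the pair, with its last 50 bases inside Pou3f3 (RefSeq, GRCm38.p6, plus strand, chr1:42695518-42695817). CG dinucleotides are in capitals, 18 in 300 bases, against a median of 7 over 32851 promoters of this length, of which 29.7% held at least as many.
Pou3f3 promoter: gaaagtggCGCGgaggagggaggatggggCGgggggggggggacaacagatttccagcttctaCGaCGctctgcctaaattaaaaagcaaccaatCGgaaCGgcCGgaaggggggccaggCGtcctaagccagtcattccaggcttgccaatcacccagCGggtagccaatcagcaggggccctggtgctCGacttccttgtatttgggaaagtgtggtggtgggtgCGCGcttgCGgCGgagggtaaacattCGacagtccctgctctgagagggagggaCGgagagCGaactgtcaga

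Rmst did not follow Sox2 across clusters (r = 0.21). Sox2 was highest in migrating interneurons (Cluster 23), at 106 ± 18.4 CPM, and Rmst was not. Mir124a-1hg and Ptbp1, a splicing repressor that miR-124 is known to lower, went in opposite directions over all 25 clusters (r = -0.54). Over the 20 clusters that are not RGC, r was 0.10, so the negative value rested on the RGC clusters. Ptbp1 was highest in Cluster 20, at 35.9 ± 11.7 CPM, and lowest in Cluster 25, at 9.13 ± 4.39 CPM.

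**Figure D3:**
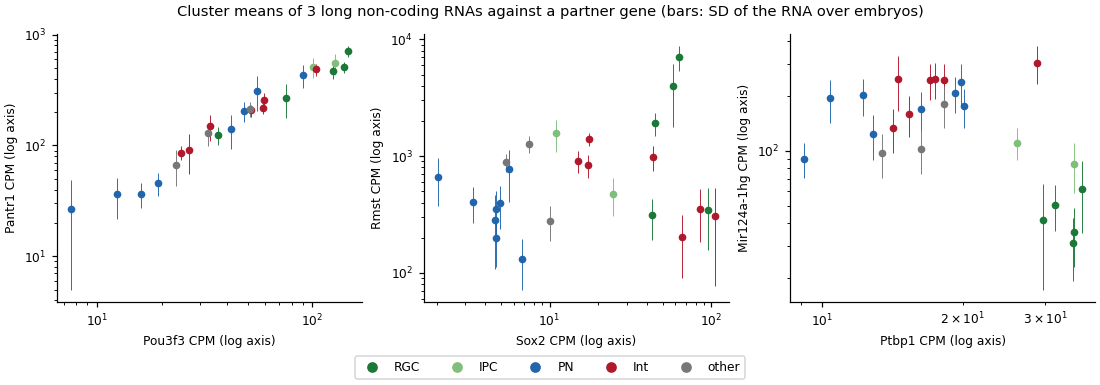
Mean CPM of 25 clusters (points, coloured by cell type) for Pantr1 against Pou3f3, Rmst against Sox2 and Mir124a-1hg against Ptbp1, on log axes, with vertical bars for the SD of the long non-coding RNA over embryos. Pantr1 and Pou3f3 lie along a line (r = 0.98), Rmst and Sox2 do not (r = 0.21), and for Mir124a-1hg and Ptbp1 the RGC clusters stand apart from the rest.

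The study's main question was which genes differ between EtOH and saline embryos in each cluster. Of the 6 measured members, Mir124a-1hg rose in EtOH in 6 of 25 clusters, Rmst fell in Cluster 5 and Snhg11 rose in Cluster 8. In this test over embryos, no call was made for Miat, Pantr1 or Gm29260, and without S2-4 Miat was called in 5 clusters, Gm29260 in 1 and Pantr1 in 0 (edgeR). A call meant an adjusted p under 0.05 (edgeR's quasi-likelihood test, Benjamini-Hochberg over all genes of a cluster) and a level at least 25% higher or 20% lower. These were 8 calls among 150 member and cluster fits, against 0.792% of all fits over genes and clusters (0.442% higher, 0.35% lower). With counts summed per dam there were 12 calls, against 0.721% of all fits. They were Rmst lower in Clusters 1, 5, 9, 11 and 23, Gm29260 lower in Clusters 7, 18, 23 and 24, Snhg11 higher in Clusters 5 and 7, and Mir124a-1hg higher in Cluster 7. Of the 8 calls over embryos, that of Rmst in Cluster 5 was then kept, those of Mir124a-1hg were lost (edgeR adjusted p = 0.060 to 0.225 in its 6 clusters), and so was that of Snhg11 (edgeR adjusted p = 0.212). With batch as a covariate there were 6 calls, against 0.419% of all fits. Those of Mir124a-1hg in Clusters 1, 10 and 11 were kept, and the other 5 were lost (edgeR adjusted p = 0.0521 to 0.0643). Without S2-4 there were 32 calls, against 8.78% of all fits, and without any one of the other 10 embryos there were 0 to 3. The saline and EtOH embryos did not overlap in 11 of the 150 pairs of member and cluster, against 2.14% of all fits. In bulk sums such as these, fewer cells with a transcript and less transcript per cell cannot be told apart.

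For Mir124a-1hg the log2 fold change was positive in 24 of 25 clusters, with a median of 0.45. In Cluster 10 (late interneuron precursors) the saline embryos held 198, 218, 225, 250 and 293 CPM and the EtOH embryos 314 to 415 CPM, so the groups did not overlap, and S2-4 was the highest saline value. The log2 fold change there was 0.55 ± 0.09 (SE; edgeR adjusted p = 0.0302), in a cluster where 0.0734% of genes were called higher. In Cluster 22 (callosal PNs) the saline values were 129, 142, 105, 166 and 200 CPM and the EtOH values 205 to 266 CPM, again without overlap (log2 fold change 0.63 ± 0.14, edgeR adjusted p = 0.0344, with 0.441% of genes called higher). In Cluster 1 the saline values were 162, 167, 146, 176 and 273 CPM and the EtOH values 264 to 308 CPM. Only S2-4 reached the EtOH range in Cluster 1, and the log2 fold change was 0.57 ± 0.12 (edgeR adjusted p = 0.0335, with 1.57% of genes called higher).

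The other clusters in which Mir124a-1hg was called were Cluster 4 (rostral subcortical PNs), Cluster 11 (striatal cells) and Cluster 15 (Int 3), with log2 fold changes of 0.51, 0.54 and 0.53. Their edgeR adjusted p-values were 0.0495, 0.0486 and 0.0470, and 0.333%, 0.452% and 0.339% of genes were called higher in them. Without S2-4, Mir124a-1hg was called in 16 of 25 clusters, all higher, against 8.78% of all fits over genes and clusters. Its log2 fold change was then 0.73 in Cluster 1 and 0.63 in Cluster 10. In RGC clusters, where the gene was low, it was called in none with all embryos, and without S2-4 it was called in Cluster 2 (log2 fold change 0.58, edgeR adjusted p = 0.0480).

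**Figure D4:**
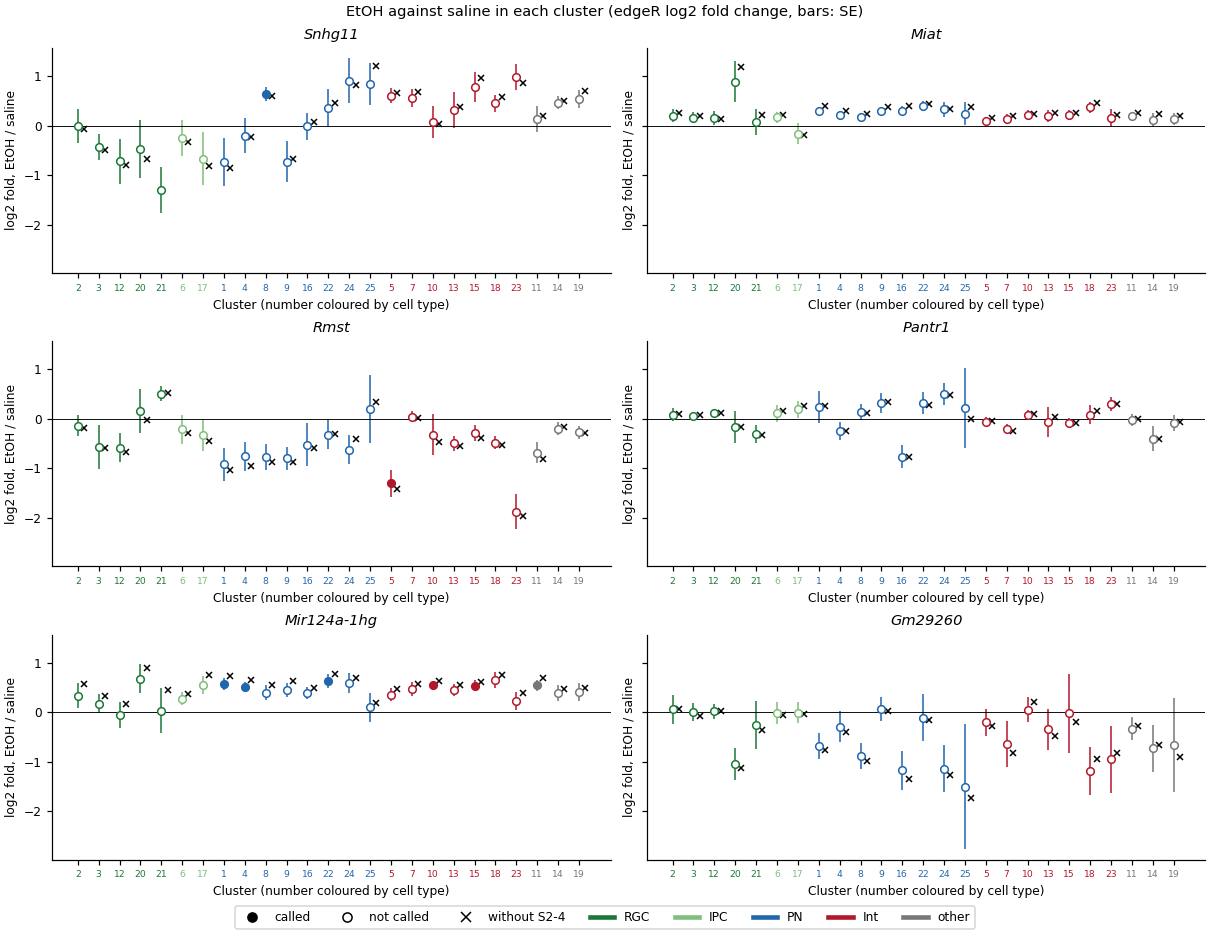
Log2 fold change of EtOH against saline for the 6 measured members in the 25 clusters (edgeR, bars: SE), coloured by cell type. Filled points passed the call and crosses show the value without S2-4. Mir124a-1hg lies above 0 in 24 of 25 clusters and Rmst below 0 in 21, and the filled points are 6 of Mir124a-1hg, 1 of Rmst and 1 of Snhg11.

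Rmst had a negative log2 fold change in 21 of 25 clusters (median -0.48), with the call in migrating interneurons (Cluster 5). There the saline embryos held 256, 264, 415, 351 and 207 CPM. The EtOH embryos held 59.5 to 206 CPM, just below the lowest saline value, which was that of S2-4. The log2 fold change was -1.30 ± 0.28 (SE; edgeR adjusted p = 0.0472), and -1.42 without S2-4. In Cluster 5, 0.813% of genes were called lower. Without S2-4, where 8.78% of all fits were called, Rmst was also called lower in Clusters 4, 9, 11, 18 and 23. The log2 fold changes there were from -1.97 to -0.52. The groups did not overlap in 3 further clusters, and in Cluster 23, also migrating interneurons, saline held 336 to 769 CPM and EtOH 37.2 to 215 CPM. In cortical hem RGCs, where Rmst was highest, the value went the other way, at 0.51 ± 0.16 (SE; edgeR adjusted p = 0.157). Sox2 fell in Cluster 5 too, by 0.43 on the log2 scale (edgeR adjusted p = 0.0484). Its log2 fold change was also negative in RGCs (-0.39), IPCs (-0.35), PNs (-0.66) and Ints (-0.35), with no call, so its fall was not particular to Cluster 5. Ints hold Sox2 themselves, with a saline mean of 49.3 CPM, against 69.3 CPM in RGCs and 6.46 CPM in PNs. Sox9, a gene of radial glia, was called lower in Cluster 5 as well (-1.14 ± 0.27, SE, edgeR adjusted p = 0.0412). The part of other cells or of their free RNA in these differences was not tested. Sox2 was the single call in Cluster 5 among the 5 partner genes examined, which were Sox2, Pou3f3, Pou3f2, Ptbp1 and Ptbp2, and 2.01% of all genes were called there.

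Snhg11 was called higher in Cluster 8 (PN 1). The saline embryos held 46.7, 59.8, 61.9, 56.2 and 50.1 CPM and the EtOH embryos 58.4 to 117 CPM, with overlap at the lowest EtOH embryo. The log2 fold change was 0.64 ± 0.15 (SE; edgeR adjusted p = 0.0431), and 1.07% of genes were called higher in this cluster. At 2000 UMIs, 7.58% of saline and 9.50% of EtOH nuclei of Cluster 8 held a Snhg11 UMI. The saline share lay at the background share given for Gad2 in saline PNs (7.90%), and the EtOH share lay above that in EtOH PNs (2.99%). Its values were positive in 14 clusters and negative in 11, and PN clusters lay on both sides. Without S2-4, where 8.78% of all fits were called, Snhg11 was called higher in Clusters 5, 7, 8 and 19. The log2 fold changes there were from 0.60 to 0.69. In Cajal-Retzius cells saline held 354 to 601 CPM and EtOH 627 to 870 CPM, with no overlap, and this was not called.

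Miat had small positive log2 fold changes in 24 of 25 clusters (median 0.20). In Cluster 1 it passed the p threshold (edgeR adjusted p = 0.0432) but not the fold limit, with a log2 fold change of 0.30 ± 0.08 (SE). The saline values there were 206, 211, 245, 243 and 320 CPM, and the EtOH values 295 to 343 CPM, so that only S2-4 overlapped with EtOH. Without S2-4 the log2 fold change was 0.40 (edgeR adjusted p = 6.8e-05), which was a call. Miat was then also called higher in Clusters 9, 16, 18 and 22, with log2 fold changes from 0.37 to 0.45. Without S2-4, 8.78% of all fits over genes and clusters were called. Pantr1 had 14 positive and 11 negative clusters, and its value in Cluster 12, where it was highest, was 0.11 with a 95% interval from -0.06 to 0.29. Gm29260 was negative in 20 of 25 clusters (median -0.33), yet in Cluster 12 its log2 fold change was 0.02 with an interval from -0.28 to 0.31. Without S2-4 it was called lower in Cluster 8 (log2 fold change -0.98, edgeR adjusted p = 0.0439). A p above the threshold does not show that the levels were equal.

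Counts summed over the clusters of a type gave 3 calls in 24 fits of members, against 4.32% of all fits over genes and types. With counts summed per dam there were 2 calls, Mir124a-1hg in Ints (edgeR adjusted p = 0.0458) and Rmst in PNs (edgeR adjusted p = 0.0495), against 1.5% of all fits. With batch as a covariate the 3 calls were kept, against 2.82% of all fits. Without S2-4 there were 4 calls, the further one being Mir124a-1hg in IPCs (log2 fold change 0.46), against 18% of all fits, and without any one of the other 10 embryos there were 0 to 3. Mir124a-1hg rose in PNs, where 4.17% of genes were called higher, and in Ints, where 3.6% were. In PNs the saline embryos held 137, 142, 128, 157 and 228 CPM and the EtOH embryos 210 to 246 CPM. The log2 fold change was 0.49 ± 0.11 (SE; edgeR adjusted p = 0.0305) and 0.64 without S2-4. In Ints the saline values were 157, 153, 151, 158 and 250 CPM and the EtOH values 220 to 270 CPM, with a log2 fold change of 0.43 ± 0.10 (SE; edgeR adjusted p = 0.0358). In both types 4 saline embryos lay below every EtOH embryo, and S2-4 lay inside the EtOH range.

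Rmst fell in PNs, where 2.36% of genes were called lower. The saline embryos held 281, 299, 413, 444 and 251 CPM and the EtOH embryos 154 to 259 CPM, with overlap at S2-4. The log2 fold change was -0.70 ± 0.17 (SE, edgeR adjusted p = 0.0383). With nuclei thinned to 2000 UMIs it was -0.84 (edgeR adjusted p = 0.0514), and the call was lost. It was also lost with no filter on low counts. Marker genes of other cells moved in PNs as well. The summed level of 4 interneuron markers ranged from 48.8 to 121 CPM in saline PNs and from 23.8 to 59.3 CPM in EtOH PNs. All 4 had negative log2 fold changes and 1 (Dlx1) was called lower. Eomes, the marker of IPCs, was called lower in PNs, and its range of 14.4 to 24.7 CPM in saline did not overlap with 9.91 to 13.8 CPM in EtOH. Of the 3 microglial markers, 2 were tested and both rose (17.8 to 27.3 CPM summed in EtOH, 8.7 to 20.8 CPM in saline). The 5 radial glial markers summed to 80.8 to 107 CPM in saline and 80.9 to 110 CPM in EtOH, with 0 of 5 called in PNs (edgeR). Among the markers of other cells, Mcam of pericytes was called lower in PNs (1.93 to 4.27 CPM for 2 pericyte markers in saline, 1.20 to 2.22 CPM in EtOH). None of the endothelial, erythroid, fibroblast, oligodendrocyte precursor or thalamic markers tested in PNs was called. The part of these cells or of their free RNA in the Rmst difference was not tested.

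**Figure D5:**
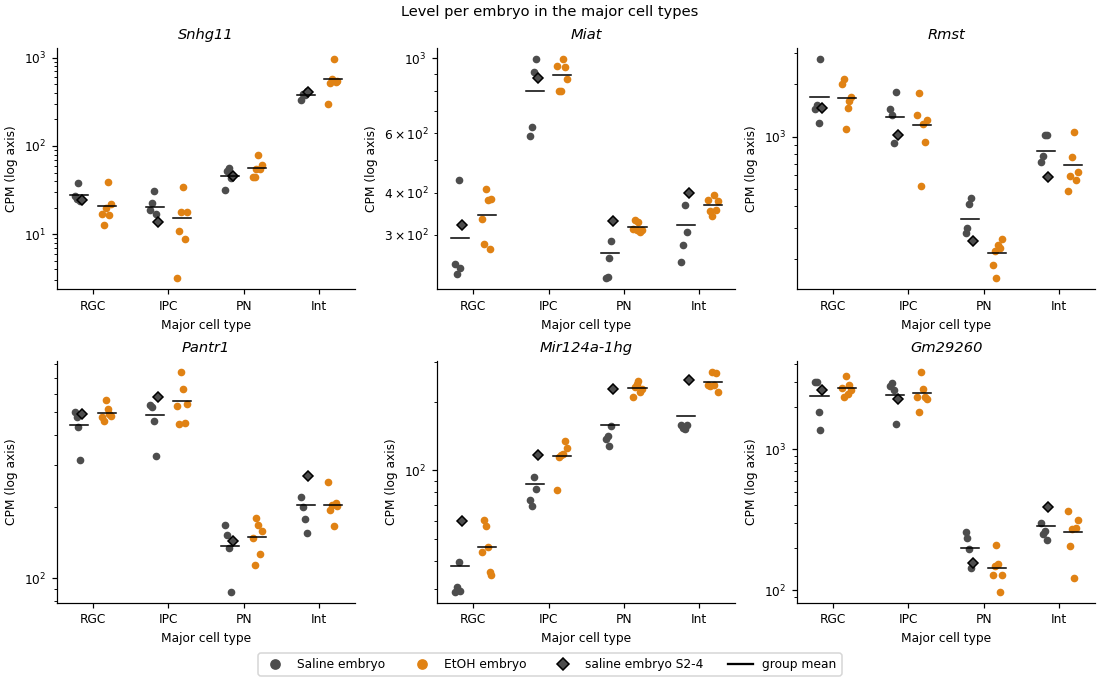
CPM of the 6 measured members per embryo (log axis) in RGC, IPC, PN and Int, saline in grey and EtOH in orange, with S2-4 as a diamond and a bar at the group mean. For Mir124a-1hg in PN and Int, 4 saline embryos lie below all EtOH embryos and S2-4 lies among them, while the Rmst values in PN run from 154 to 444 CPM with S2-4 at 251 CPM.

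Whether a difference itself differed between cell types was tested on the log2 CPM of PN or Int minus that of RGC in each embryo. It did for Snhg11, Rmst and Gm29260 in 4 of 12 tests, and over all genes 3.65% of such tests gave a p as low as those. Snhg11 rose in PNs relative to RGCs, from 0.72 ± 0.34 in saline (SD, n = 5) to 1.49 ± 0.29 in EtOH (SD, n = 6), a difference of 0.77 (two-sided exact permutation test, p = 0.00649, adjusted 0.0260). In Ints relative to RGCs the Snhg11 difference was 0.98 (exact permutation p = 0.00433, adjusted 0.0260). Both rest on a low RGC term, since at 2000 UMIs 4.47% of saline and 3.07% of EtOH RGC nuclei held a Snhg11 UMI. In PNs the shares were 5.49% and 4.93%, and these are in the range of the background shares given for Gad2 in PNs. Rmst fell by 0.66 in PNs relative to RGCs (exact permutation p = 0.00649, adjusted 0.0260), and Gm29260 fell by 0.71 (exact permutation p = 0.0152, adjusted 0.0455). For Mir124a-1hg the difference between types was 0.25 for PNs (exact permutation p = 0.197), so its larger values in neurons were not shown to differ from those in RGCs. With labels exchanged only within batches, 0 of 12 tests passed. Without any one of 7 embryos (S1-1, S2-1, E1-1, E1-2, E2-1, E2-3 and E2-4) none passed either, by the exact permutation test. In both settings the smallest p that the design allows is larger. Within batches it is 0.00476, against 0.00216 over all splits (exact permutation test). Such losses therefore do not show that a result rested on batch or on an embryo left out.

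The share of nuclei with at least 1 UMI was compared at a fixed depth of 2000 UMIs per nucleus, because the EtOH nuclei were shallower. This left out 210 EtOH and 177 saline nuclei. Of 150 two-sided exact permutation tests, 15 passed after Benjamini-Hochberg adjustment, with adjusted p-values of 0.0406 or 0.0433, and 0.00216 was the smallest unadjusted p that the design allows. Over all genes tested by edgeR in the clusters, 1.21% had a p as low as those that passed, 0.486% with a higher and 0.72% with a lower share in EtOH. Of the members' 15, 4 were higher and 11 lower. Without S2-4, 34 tests passed, where 4.05% of tests over all genes had a p as low. Without any one of the other 10 embryos 0 passed (exact permutation tests). With an embryo fewer, the smallest p that the design allows is larger. These losses therefore do not show that a result rested on the embryo left out. Snhg11 rose in Cajal-Retzius cells from 44.3% ± 5.30 (SD, n = 5) to 56.4% ± 4.29 (SD, n = 6). Miat rose in Cluster 15 from 34.8% ± 2.74 to 46.3% ± 3.58. Mir124a-1hg rose in Cluster 1 from 30.4% ± 5.70 to 43.3% ± 3.19, and in Cluster 15 from 22.2% ± 4.57 to 31.3% ± 2.59. None of these 4 rises passed at the deposited depth (exact permutation tests, adjusted p = 0.371 to 0.790), where the 11 falls did. At that depth the shallower EtOH nuclei lower the EtOH shares by themselves, so it cannot serve as a check on rises or falls. No test passed at 1000 UMIs.

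Rmst and Gm29260 were found in fewer EtOH nuclei of several clusters. For Rmst the share fell in Clusters 17, 1, 4, 8 and 5. In callosal PNs (Cluster 1) it fell from 28.9% ± 8.81 to 11.2% ± 4.05, and in Cluster 5 from 31.3% ± 10.9 to 11.8% ± 4.1. For Gm29260 the share fell in PN Clusters 1, 4 and 16 and in Int Clusters 5, 13 and 18, from 17.3% to 23.4% in saline and from 6.60% to 12% in EtOH. At the deposited depth the shares of Gm29260 in Cluster 4 were 53.4% and 15.5%, and those of Rmst in Cluster 4 were 64.5% and 20.3%. The EtOH nuclei were shallower at that depth, so these gaps also hold the difference in depth.

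Gad2, an interneuron gene, gives the level of such shares in cells that should lack it. At 2000 UMIs its share in PNs was 7.90% ± 3.85 in saline and 2.99% ± 1.02 in EtOH, while in Ints it was 73.9% and 75.3%. The median depths were 7630.5 UMIs in PNs and 7445 in Ints. The Gad2 share in PNs was lower in EtOH, as were the shares of Rmst and Gm29260. The share of Neurod6, a marker of PNs, overlapped between the groups in RGCs and in Ints. At 2000 UMIs it was 3.41% ± 1.19 in saline and 3.48% ± 0.906 in EtOH RGCs (SD). In Ints it was 4.06% ± 0.867 in saline and 3.46% ± 0.897 in EtOH (SD). A lower share in EtOH was therefore not common to both genes. The part of such background in the shares of Rmst and Gm29260 was not tested. Snhg11 in Cluster 1, at 2.32% over all embryos, lay at the Gad2 level of EtOH PNs, and the part of background in it was not tested either.

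Among other long non-coding RNAs, 27 of 44 listed had a row. Of all genes, edgeR called 3.79% in RGCs, 1.52% in IPCs, 6.53% in PNs and 4.83% in Ints. The imprinted Kcnq1ot1 was called lower in 10 clusters and in all 4 cell types, with log2 fold changes from -0.83 to -0.34. Tug1 was called lower in RGCs, PNs and Ints, and Dlx6os1, an interneuron transcript, was called lower in PNs (-1.02 ± 0.26, SE; edgeR adjusted p = 0.041). Lncpint was called higher in RGCs, and Snhg20 higher in IPCs and PNs.

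Genes known as targets of miR-124 were counted beside its host gene. Of 10 listed, 10 were tested in PNs, where Actl6a (0.41 ± 0.08, SE) was called higher and Cdk6 (-0.58 ± 0.17) lower. The median log2 fold change of the list was -0.25 in PNs, -0.05 in RGCs, 0.08 in IPCs and -0.03 in Ints. Over all genes tested it was from 0.00396 to 0.0103 in these types. Ptbp1, which is on the list, had positive values in each type and was not called (0.16 in PNs, 0.19 in RGCs, 0.25 in IPCs and 0.11 in Ints). In Ints 1 of 10 was called, Sox9 (-0.81 ± 0.15, SE). In RGCs Actl6a was called higher and Sox9 lower, and in IPCs 0 of 9 tested were called by edgeR. Without S2-4, 1 was called higher and 3 lower in PNs, and 2 higher and 1 lower in Ints. In RGCs and in IPCs it was then 1 higher and 1 lower, against 18% of all fits over genes and types. Ptbp2, the neuronal paralogue of Ptbp1, was lower by less than the fold limit in PNs (-0.20 ± 0.05, SE; edgeR adjusted p = 0.038) and in Ints (-0.22 ± 0.06, SE; edgeR adjusted p = 0.044).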

How the data were processed

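Single-nucleus libraries of 11 embryonic cortices were made with 10x 3′ v3.1 chemistry. The deposited tables hold UMI counts per gene and nucleus, 1 table for each embryo and cluster (275 tables). The authors had aligned the reads with Cell Ranger at default settings to mm10, removed low-transcript, thalamic and non-neuronal clusters, and named the clusters. Version, intron and strand settings, and the treatment of doublets, are not given in the sources used here. No doublet caller was run.

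Counts were summed per embryo and cluster, and per embryo and cell type, where at least 10 nuclei were present (9 of 275 pairs were under this). All genes were tested in edgeR 4.0.16 (R 4.3.3) with TMM scaling, filterByExpr, a robust quasi-likelihood fit and treatment as the only term. SE was taken as the log2 fold change over the square root of F. Shares of nuclei were taken after thinning each nucleus to 2000 UMIs, and 387 shallower nuclei were left out. Shares and differences between types were tested by exact permutation of the embryos over 462 splits. Both tests were also run over all genes, to give a background rate. Alternatives summed counts per dam, added batch or a block, and used DESeq2 1.42.0 and limma 3.58.1, and the fits and permutation tests were tested on simulated data. The members, gene lists and tests were chosen with earlier results of these data known. For each member the 3 genes of highest correlation were named, partner genes and targets came from lists, and other long non-coding RNAs were named where called.

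Gene positions were matched by symbol to GENCODE M21 (GRCm38), which held 23090 of 23513 genes (98.2%). Sequences came from RefSeq (GRCm38.p6) and GENCODE.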

Additional observations from a re-analysis of the deposited data

Results flagged for a closer look

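In 5 of 48 groups of embryos (6 members, 4 cell types, 2 treatments) the highest embryo lay apart from its group by more than Dixon's 95% limit, where chance gives about 1 in 20. Of these, 2 were the library S2-4. Mir124a-1hg stood at 228 CPM in its PNs, against 128 to 157 CPM in the other saline embryos, and at 250 CPM in its Ints, against 151 to 158 CPM. Rmst in RGCs stood at 2789 CPM in saline embryo S2-2, against 1193 to 1513 CPM in the others. Snhg11 in RGCs stood at 38.3 CPM in saline embryo S2-1 (others 24 to 27.3 CPM) and at 39.0 CPM in EtOH embryo E2-2 (others 12.7 to 21.8 CPM).

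The EtOH effect differed between cell types in 4 of 12 exact permutation tests, against 3.65% of tests over all genes at a p as low, and in 0 of 12 with labels exchanged within batches. Within batches the smallest p that the design allows is larger, so this loss does not show that the results rested on batch. For Snhg11 the difference was 0.77 on the log2 scale in PNs minus RGCs and 0.98 in Ints minus RGCs, with an RGC term in which 3.07% to 4.47% of nuclei held a UMI at 2000 UMIs, within the background shares of Gad2 in PNs (2.99% to 7.90%). For Rmst it was -0.66 in PNs minus RGCs, and for Gm29260 it was -0.71.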

How the results depend on the processing

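The count of calls in clusters (8 of 150) became 16 with DESeq2 (2.61% of all fits called), 25 with no filter on low counts (2.07%), 13 with limma voom (2.24%) and 5 with nuclei thinned to 2000 UMIs (0.599%). It was 0 to 32 with each embryo left out (0.0408% to 8.78%), the 32 being without S2-4 and the 0 without S1-1, S1-2, E1-1, E2-1 or E2-3. In cell types the count (3 of 24) was 0 to 4 with each embryo left out (0% to 18%). Same-numbered embryos of the groups did not deviate together (r from -0.25 to 0.01 over 5 pairs), so the numbers share only a name. With batch and number as a replicate block 5 calls were made in clusters (0.222%) and 0 in cell types (0.00182%, edgeR). The shares that passed (15 of 150) became 40 without thinning, all lower in EtOH, 0 at 1000 UMIs and 30 with labels exchanged within batches. Without thinning the EtOH nuclei were shallower, which lowers their shares. The count was 0 to 34 with each embryo left out, where the smallest p that the design allows is larger. The differences between types that passed (4 of 12) became 0 with labels exchanged within batches and 0 with equal weight per cluster, and 0 to 4 with each embryo left out. Within batches and with an embryo left out, the smallest p that the design allows is larger here too. The cause of these changes was not tested.

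No called value changed sign. Of 99 values of called members under alternatives that kept all embryos, 67 kept the call and 32 lost it. With 1 embryo left out, 20 of 121 kept it. Signs changed in uncalled fits of members, in 12 of 141 with thinning, 11 of 157 with the block, 8 of 157 per dam and 3 to 13 with 1 embryo left out, and in uncalled differences between types. Miat in Ints minus RGCs (-0.0352) was 0.0210 with equal weight and 0.0553 with thinning, and -0.132 to 0.0395 with each embryo left out. Pantr1 in PNs minus RGCs (-0.0499) was 0.112 with equal weight and -0.0844 to 0.00092 with each embryo left out, and Miat in PNs minus RGCs (0.0263) was -0.132 to 0.126. The level of each member in its highest cluster moved by less than 1 SD with thinned nuclei and with saline embryos alone. Low members limit what depth can show: Snhg11 in Cluster 17 rested on 168 UMIs over 11 embryos and Pantr1 in Cluster 25 on 56 over 7.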
